A study of Drosophila melanogaster with 3 samples.

Results

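Small nucleolar RNA (snoRNA) genes were examined in peak lists from GFP ChIP-seq of Drosophila melanogaster embryos. The members were all genes of the type snoRNA in the Release 6 annotation (Ensembl release 115) on the arms of chromosomes 2, 3, 4 and X, and they numbered 269 of 18164 annotated genes. A snoRNA gene counted as marked where the summit of a peak lay within 500 bp of its annotated start. Each gene was then classed by whether it lay whole inside an intron of a host gene on its own strand, and for the intronic genes it was asked whether the peak stood at a transcription start site (TSS) of the host, again within 500 bp. No measured value was used to choose the genes.

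The embryos were 0-24 h old, of both sexes pooled, and came from 1 transgenic line that stably expresses a protein with a C-terminal GFP tag. The labels name the tagged protein as CG45071 in the description, the strain as CG6854-GFP and the target of the insertion as CTPsyn, and the antibody field reads CG6854 while the description speaks of anti-GFP. Chromatin was sonicated to fragments of 200-800 bp, and 3 replicates, called biological in the labels, form the only group. Whole embryos mix all tissues, so a summit says nothing of the cells it came from, and no library without the tag was analysed here.

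The values are the authors' own peak lists on dm6. Each replicate list and the pooled list held 30000 peaks, a fixed length that keeps many weak peaks. The optimal list, which the authors made with a test of reproducibility between replicates (IDR), held 3545. Peaks were ranked within their own list by the authors' signal, rank 1 being the strongest, and neither signal nor rank was compared between lists as an amount. At every host with an optimal summit at a TSS, the strongest peak held the same rank in the optimal and pooled lists. A place in the optimal list thus does not show that every replicate ranked the peak high. A replicate rank given for a gene is that of the strongest replicate peak with a summit in the window, which can be a different peak from the pooled one. The median peak was 436 bp wide in the optimal list. Depth is unknown because only peak lists were used. Intervals on shares are Wilson 95% intervals and cover counting error only.

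By way of background, snoRNAs are short stable RNAs that act in the nucleolus. Box C/D snoRNAs guide 2′-O-methylation and box H/ACA snoRNAs guide pseudouridylation of ribosomal RNA, each by pairing with the bases around the target position, and the related scaRNAs do the same for spliceosomal RNAs. In Drosophila most lie in introns and are released when the host transcript is spliced, so that the host's promoter drives them. Many hosts encode ribosomal proteins, and others, the Uhg genes, are spliced transcripts not known to encode a protein, whose introns carry the snoRNAs.

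In the annotation, of the 269 genes, 243 (90.3%) lay in an intron of a gene on the same strand. Another 12 lay outside any gene, 10 lay in a gene on the other strand only, and 4 overlapped an exon. By name, 109 were box C/D, 114 box H/ACA and 16 scaRNA genes, and for 30 the name gave no class. The 243 intronic genes had 89 hosts. Ribosomal protein genes made up 28 hosts with 71 snoRNA genes, Uhg genes made up 7 hosts with 47, other protein-coding genes made up 51 hosts with 118, and 3 other noncoding genes held 7.

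The sequences of 5 snoRNA genes with an optimal summit near their start show both classes. They come from the RefSeq sequence of Release 6 and run 5′ to 3′ on the gene's strand. Capitals mark the C box (TGATGA) and the D box (CTGA) of the box C/D genes and the ACA near the 3′ end of the box H/ACA genes, as found by letter match. The first 4 are intronic, and the last, Psi28S-2622, lies in no intron of its own strand.
U49:66Da, chr3L:8601473-8601552, plus strand: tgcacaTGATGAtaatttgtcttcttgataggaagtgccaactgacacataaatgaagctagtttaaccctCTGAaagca
Or-CD11a, chr3L:3222475-3222541, minus strand: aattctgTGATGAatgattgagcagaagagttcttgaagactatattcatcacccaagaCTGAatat
Psi28S-1232, chrX:6743675-6743815, minus strand: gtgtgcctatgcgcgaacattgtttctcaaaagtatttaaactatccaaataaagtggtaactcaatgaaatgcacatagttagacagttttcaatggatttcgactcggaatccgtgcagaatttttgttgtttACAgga
Psi28S-2648, chr2L:8042189-8042350, minus strand: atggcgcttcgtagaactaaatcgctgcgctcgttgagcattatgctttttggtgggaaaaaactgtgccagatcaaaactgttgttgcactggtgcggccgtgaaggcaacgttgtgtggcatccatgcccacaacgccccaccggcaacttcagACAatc
Psi28S-2622, chr3L:1488906-1489045, plus strand: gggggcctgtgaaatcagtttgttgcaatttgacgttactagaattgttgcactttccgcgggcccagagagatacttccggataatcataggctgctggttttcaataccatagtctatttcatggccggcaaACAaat

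An optimal summit lay within 500 bp of the start of 19 of 269 snoRNA genes, or 7.06% (4.57 to 10.8%), against 10.3% of all annotated genes. A pooled summit lay there for 68 of 269 (25.3%, 20.5 to 30.8%), against 44% of all annotated genes. The replicate lists gave 76 (28.3%), 82 (30.5%) and 68 (25.3%) genes in replicates 1, 2 and 3, against 40.7%, 44.9% and 41.8% of all annotated genes. There were 39 genes (14.5%) with a summit in all 3 lists, against 26.6% of all annotated genes. In each of these 6 counts the share of snoRNA genes was below that of annotated genes at large, and for the pooled and replicate lists the interval did not reach the background. The intervals treat the genes as independent, although many share a host or a peak, so they are too narrow. No summit of any replicate list lay near 144 of the snoRNA genes (53.5%, 47.6 to 59.4%), against 40.9% of all annotated genes. Within the snoRNA genes themselves, sequence repeats touched few members: 235 genes had 90% or more of their 36-base words unique in the genome, 8 had under 50%, and the 19 with an optimal summit had 93.8% or more. Repeats in the rest of the 500 bp windows were not examined.

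The other genes for small RNAs varied in their shares. An optimal summit lay near the start of 4.46% of 112 miRNA genes that lie in introns and a pooled one near 30.4%. The optimal share was 14.8% of 290 tRNA genes and 6.25% of 32 small nuclear RNA genes. The box classes were close to each other, with optimal summits at 6 of 109 box C/D genes (5.5%, 2.55 to 11.5%) and at 10 of 114 box H/ACA genes (8.77%, 4.83 to 15.4%).

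Among the intronic snoRNA genes, 14 of 243 (5.76%, 3.46 to 9.44%) had an optimal summit and 53 of 243 (21.8%, 17.1 to 27.4%) a pooled one. Among the 26 that were not intronic, 5 (19.2%, 8.51 to 37.9%) had an optimal summit and 15 (57.7%, 38.9 to 74.5%) a pooled one. The intervals overlapped for the optimal list and did not overlap for the pooled list. Of the 12 genes outside any gene, 10 had a pooled summit, 9 a summit in all 3 replicate lists and 2 an optimal summit. Several of these genes share a locus and hence a peak, so the counts are not of independent sites.

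Most optimal peaks at intronic snoRNA genes stood at the host's promoter. For 13 of the 14 intronic genes with an optimal summit, the strongest summit lay within 500 bp of a host TSS, and it lay nearer to that TSS than to the snoRNA start in all 13. Counted as distinct peaks, 11 of 12 lay at a host TSS. Over the whole optimal list, 1853 of 3545 summits (52.3%) lay within 500 bp of a TSS of any gene other than small RNA and miRNA genes. The median distance from summit to host TSS was 45 bp, and the median distance from summit to snoRNA start was 364 bp. All 14 summits lay upstream of the snoRNA start. The exception was hts-a, a snoRNA gene in an intron of hts, which encodes an adducin-like protein of the membrane skeleton; its summit lay 3289 bp from the nearest hts TSS. The weaker peaks were placed differently: for the 39 intronic genes with a pooled but no optimal summit, the strongest summit lay at a host TSS in 14 (35.9%, 22.7 to 51.6%), and its median distance from the host TSS was 620 bp.

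**Figure D1:**
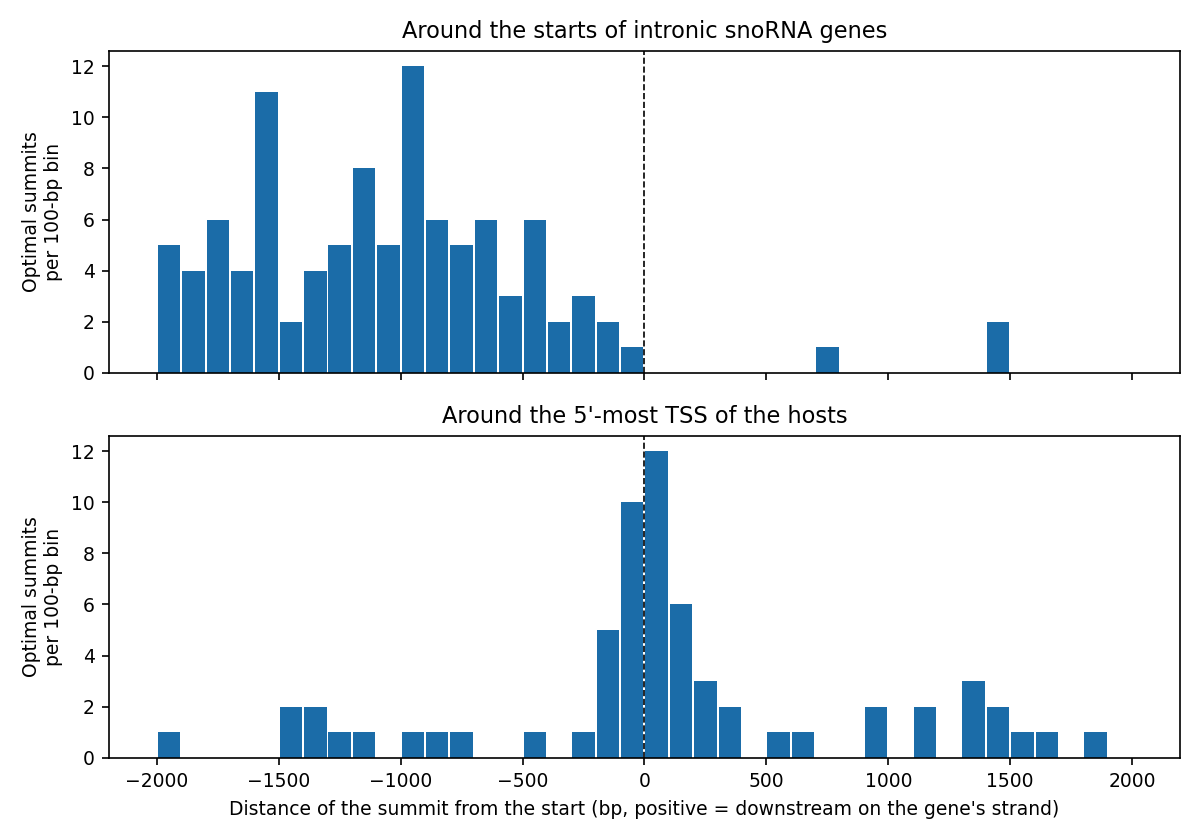
Optimal summits in bins of 100 bp by their distance from the 243 intronic snoRNA starts (top) and from the 5′-most TSS of the 89 hosts (bottom), with positive distances downstream on the gene's strand. Around the snoRNA starts 100 summits lay in the 2000 bp upstream and 3 in the 2000 bp downstream, with no pile at the start itself, while around the host TSS 33 lay within 200 bp.

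The same layout appeared when all summits in a wider range were counted. Within 2000 bp of the intronic snoRNA starts, 100 optimal summits lay upstream and 3 downstream, a peak being counted once for each snoRNA gene it neighbours. Only 3 of them lay within 200 bp of a start. Around the 5′-most TSS of the hosts, 27 lay upstream and 37 downstream, and 33 lay within 200 bp. The optimal summits thus centred on the hosts' TSSs and not on the snoRNA starts. In the pooled list the excess upstream of the snoRNA starts was smaller, at 289 against 111.

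Intronic snoRNA genes were marked more often the nearer they lay to the host's TSS. The start of the intronic genes lay a median of 1441 bp from the nearest host TSS, 1096 bp for box C/D and 1580 bp for box H/ACA genes. Of the 33 genes that began within 500 bp of a host TSS, 11 (33.3%, 19.8 to 50.4%) had an optimal summit and 23 (69.7%) a pooled one. Of the 50 genes at 501 to 1000 bp, 2 had an optimal summit and 14 a pooled one. None of the 42 genes at 1001 to 1500 bp and none of the 32 at 1501 to 2000 bp had an optimal summit, while 6 and 4 had a pooled one, and of the 86 genes beyond 2000 bp 1 had an optimal summit and 6 a pooled one. A summit at a TSS cannot lie within 500 bp of a start that is over 1000 bp away, so this order is in part set by the rule itself. All 11 marked genes within 500 bp belonged to the 21 whose host had an optimal summit at a TSS, against none of the 12 whose host had none. The windows around start and TSS overlap for these genes, and 1 summit can count for both. This split is therefore largely set by the rule as well.

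**Figure D2:**
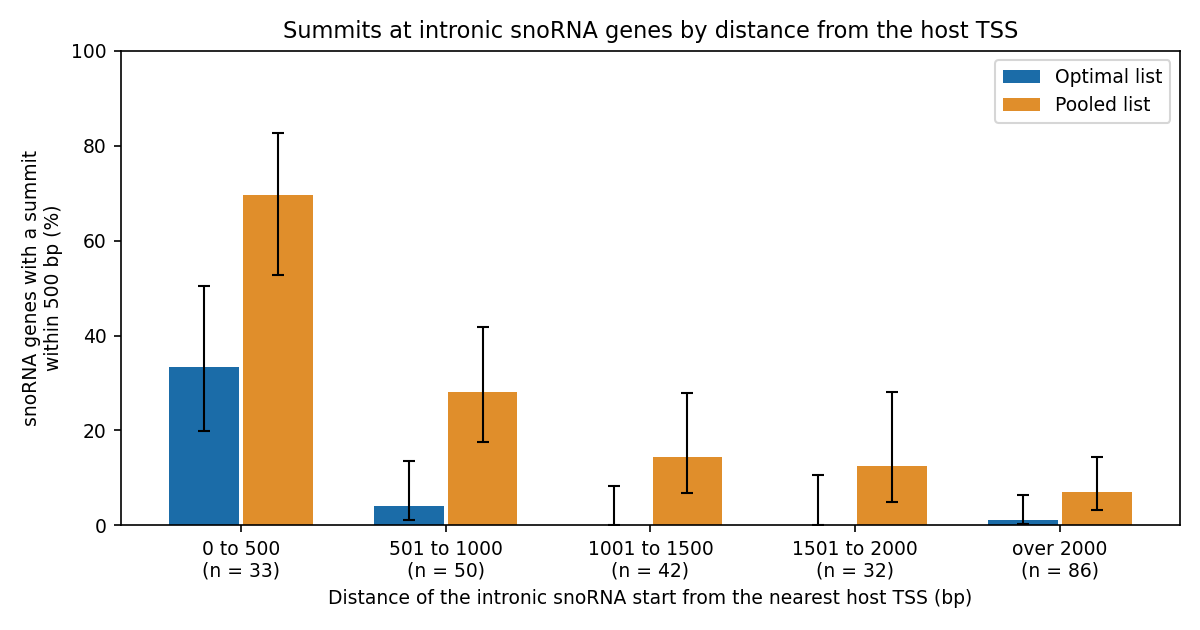
Share of intronic snoRNA genes with an optimal (blue) or pooled (orange) summit within 500 bp of their start, by distance of that start from the nearest host TSS, with Wilson 95% intervals. The optimal share is 33.3% in the nearest bin, 4% in the next and between 0% and 1.16% beyond, and the pooled share falls from 69.7% in the nearest bin to 6.98% in the farthest.

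The 14 intronic genes with an optimal summit were mostly in hosts for ribosomal proteins (9 genes) and in Uhg hosts (4 genes), the last being hts-a. The strongest belonged to U49:66Da, a box C/D gene in RpL14, which encodes a large-subunit ribosomal protein. Its peak ranked 207 in the pooled list, and the summit stood 11 bp upstream of the RpL14 TSS and 478 bp from the snoRNA start. At the RpL14 TSS the strongest peaks ranked 172, 301 and 193 in replicates 1, 2 and 3. Counted at the snoRNA start, the ranks were 12059 and 301 in replicates 1 and 2, with no summit in replicate 3, because the start lies at the edge of the 500 bp window.

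Uhg4 carries 7 snoRNA genes, and a single peak at its TSS (chr2R:9095090-9095357, rank 259) marked the first pair of them, Psi28S-2949 in intron 1 and Or-aca5 in intron 2, both box H/ACA. That peak ranked 182, 312 and 291 in replicates 1, 2 and 3, so it was near the top in every list. The other 5 snoRNA genes of Uhg4 began 723 to 1757 bp from the TSS and had no summit in any list. Uhg5 carries 11 snoRNA genes, and its TSS peak (chr2R:14621428-14621863, rank 1716) marked the box C/D genes Me18S-C1366 and Me28S-C3227a in introns 1 and 2, with ranks of 2002, 1543 and 2429. Of its other 9 genes, Or-CD4 had a pooled summit, of rank 14284 and 405 bp downstream of its start, and the remaining 8 had no summit in any list.

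The box H/ACA gene Psi28S-1232, in RpL17, had a peak of rank 464 whose summit lay 27 bp upstream of a RpL17 TSS, and its ranks in replicates 1, 2 and 3 were 336, 544 and 539. Me18S-C1096, a box C/D gene in RpL3, had a peak of rank 406 with its summit 32 bp downstream of the RpL3 TSS. Its ranks were 379, 3867 and 507, and replicate 2 ranked 439 when read at the RpL3 TSS. For Me18S-C1096, as for U49:66Da, the replicate ranks lay closer together when read at the host TSS, while for Psi28S-1232 they were the same at both places.

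Or-CD11a, a box C/D gene in RpL28, had ranks of 677, 637 and 1126 in replicates 1, 2 and 3. Psi28S-2648, a box H/ACA gene in RpL36A, had ranks of 683, 828 and 1216. Me28S-A774b, a box C/D gene in RpS12, had ranks of 832, 1196 and 957. At all 3 genes, as at most intronic genes with an optimal summit, every replicate placed a peak in the window among its 3545 strongest, the length of the optimal list.

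Psi18S-1275, a box H/ACA gene in RpS29, had ranks of 1811, 966 and 1743. Or-aca2, a box H/ACA gene in RpS6, had ranks of 969, 2808 and 1378; the summit lay 52 bp from the RpS6 TSS and 23 bp from the annotated start of the pseudogene CR33222, so it cannot be given to one of them. Psi18S-1295, a box H/ACA gene in RpS20, had the weakest of these peaks, with a pooled rank of 3133 and replicate ranks of 6987, 2449 and 3653. RpS20 also had a stronger optimal peak at its TSS, of rank 1190, whose summit lay too far upstream to mark the snoRNA gene. The hts-a peak ranked 1426, 2294 and 1655.

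**Figure D3:**
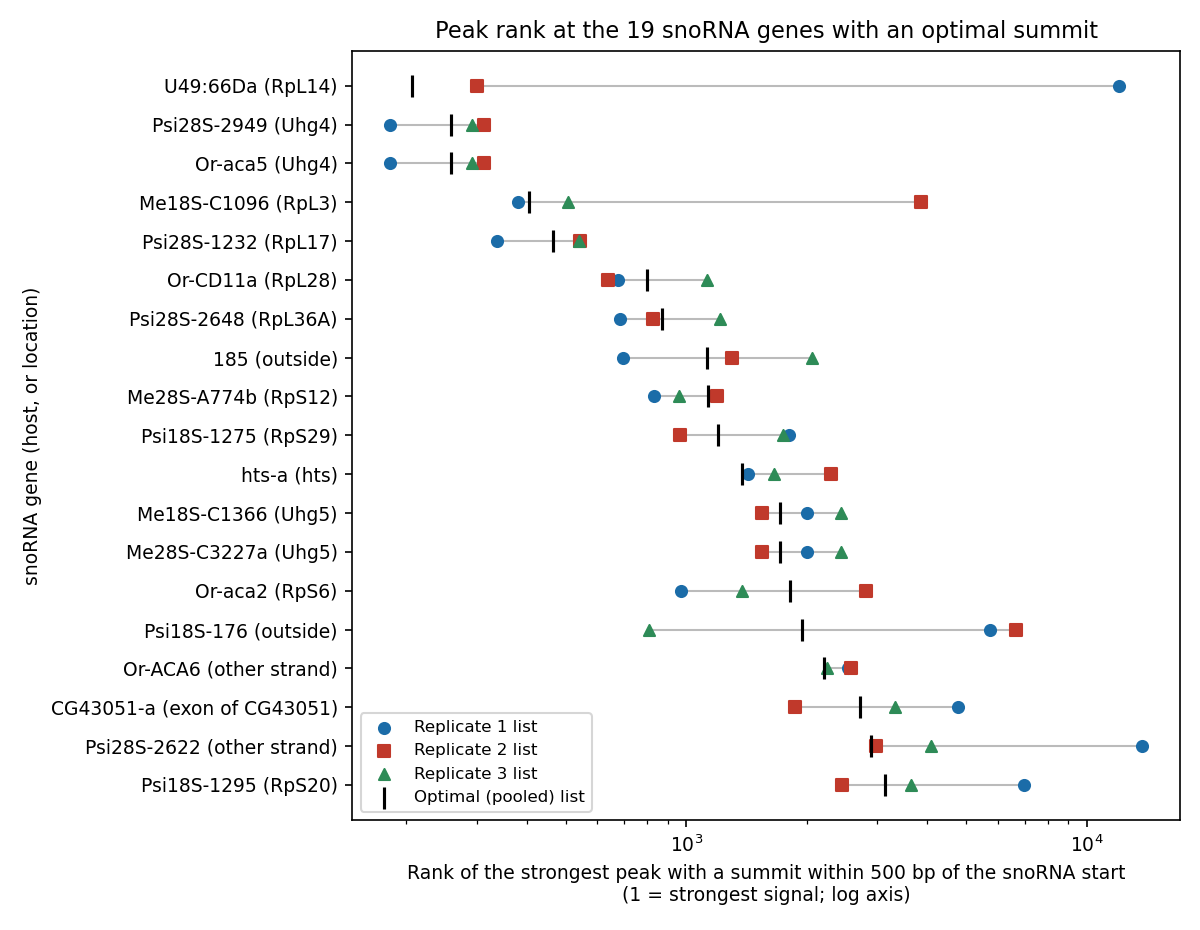
Rank, on a log axis, of the strongest peak with a summit within 500 bp of each of the 19 snoRNA genes with an optimal summit, in the lists of replicates 1 (circle), 2 (square) and 3 (triangle) and in the pooled list (black bar). Most genes hold similar ranks in the 3 lists, such as 182, 312 and 291 for Psi28S-2949, while U49:66Da has a rank of 12059 in replicate 1 and no point for replicate 3, and Psi28S-2622 has a rank of 13763 in replicate 1.

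The 19 genes shared 17 distinct peaks, whose median signal was 207, against 167 over the whole optimal list. The window set who was counted. The members just inside it were U49:66Da at 478 bp and Me18S-C1096 at 479 bp from the nearest optimal summit, and those just outside were abba-a at 517 bp, Or-CD13 at 570 bp and Me28S-A2113 at 592 bp. With a window of 250 bp the count fell to 9, and with one of 1000 bp it was 50.

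The hosts themselves were marked far more often than the snoRNA genes inside them. An optimal summit lay within 500 bp of a TSS of 43 of 89 hosts (48.3%, 38.2 to 58.5%), against 14.1% of protein-coding genes, and a pooled summit at 78 of 89 (87.6%), against 51.3%. A TSS summit in all 3 replicate lists was found for 69 of 89 hosts (77.5%, 67.8 to 85%), against 33.9% of protein-coding genes. Hosts had a median of 2 annotated TSSs, against 1 for protein-coding genes, which gives them more chances of a summit. Among hosts with 1 annotated TSS, 18 of 44 (40.9%, 27.7 to 55.6%) had an optimal summit, against 9.07% of protein-coding genes with 1 TSS. These 44 hosts mix groups, with 12 ribosomal protein hosts, 23 other protein-coding hosts and 7 Uhg genes among them. They are thus not a set like the protein-coding background, and their share is not one for each group. Of the 43 marked hosts, 30 had no snoRNA gene that began within 500 bp of a TSS, and of the 129 snoRNA genes that lay in marked hosts 13 had an optimal summit themselves.

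Ribosomal protein hosts led. An optimal summit lay at a TSS of 22 of 28 (78.6%, 60.5 to 89.8%), against 43 of 60 ribosomal protein genes that host no snoRNA (71.7%, 59.2 to 81.5%), and these intervals overlap widely. The strongest were RpL13A (rank 183), RpL30 (rank 184), RpS4 (rank 193) and RpL14 (rank 207). RpL13A ranked 154, 203 and 158 in replicates 1, 2 and 3, and RpS4 ranked 277, 193 and 141. Among the ribosomal protein hosts without an optimal summit, RpS9, RpL15 and RpL10Ab had pooled ranks of 3847, 4016 and 4565, and RpL5 had no pooled summit at a TSS.

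Other protein-coding hosts had an optimal summit at a TSS in 19 of 51 (37.3%, 25.3 to 51%), against 13.6% of the other protein-coding genes that host no snoRNA and encode no ribosomal protein. This comparison was not matched for the number of TSSs. The strongest, chosen after the values were seen, was Stt3A, a catalytic subunit of oligosaccharyltransferase with 3 snoRNA genes, at rank 65. Its ranks in the 3 replicates were 57, 66 and 72, and the summit lay 416 bp upstream of the TSS. The Uhg genes had an optimal summit at 2 of 7, Uhg4 and Uhg5, and pooled summits at 6 of 7, Uhg7 being the one without. None of the 3 other noncoding hosts had a TSS summit in any list, against 5.4% of noncoding RNA genes in the optimal list and 28.9% in the pooled list. With 3 genes the interval runs from 0 to 56.1%, so these shares cannot be set apart. Of the 3, lncRNA:CR42491 lies within the span of RpL22 and lncRNA:CR45184 within that of Sf3b3, on the same strand. RpL22 had an optimal TSS peak of rank 465 and Sf3b3 a pooled one of rank 4081.

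**Figure D4:**
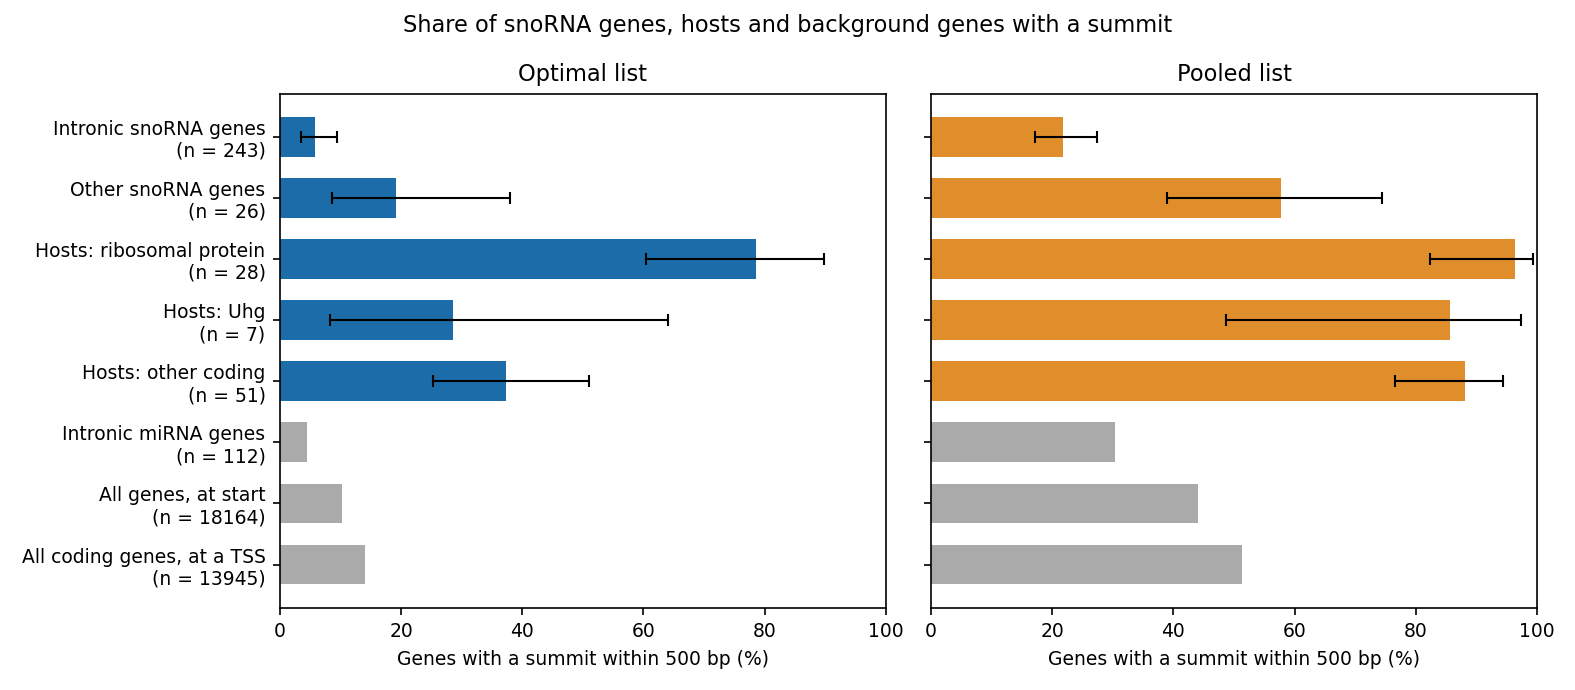
Share of genes with an optimal (left) or pooled (right) summit within 500 bp, for snoRNA genes by location and for hosts by group (coloured, with Wilson 95% intervals) and for background genes (grey). In the optimal list the intronic snoRNA genes stand at 5.76% and the ribosomal protein hosts at 78.6%, against 14.1% of all protein-coding genes.

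Hosts with many snoRNA genes differed widely in peak rank. Arpc2, which encodes a subunit of the actin-nucleating Arp2/3 complex and carries 17 snoRNA genes, the most of any host, had no pooled summit at a TSS; its replicate peaks ranked 13877, 3253 and 14397. Uhg1, with 16, had a pooled peak of rank 4640 and no optimal one. The chromatin remodeller gene dom, with 15, had an optimal peak of rank 1501 with its summit 250 bp downstream of the TSS. Its strongest TSS peaks in replicates 1, 2 and 3 ranked 4448, 1586 and 810, and that of replicate 1 lay 40 bp upstream of the TSS. RpS5a, with 14, had an optimal peak of rank 743, and its replicates ranked it 966, 598 and 683. Thus the 4 hosts with the most snoRNA genes ran from no pooled summit to an optimal peak of rank 743.

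Of the remaining large hosts, RpS7 (7 snoRNA genes) had an optimal peak of rank 829, and Hrb98DE, a gene for an hnRNP protein with 7, had one of rank 3540. The hosts kra, with 8, and Nop60B, with 7, had only pooled peaks, of ranks 5921 and 10402. Over all hosts with 5 or more snoRNA genes, 9 of 14 (64.3%, 38.8 to 83.7%) had an optimal summit at a TSS, against 23 of 52 hosts with a single one (44.2%, 31.6 to 57.7%), and the intervals overlap.

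Of the 26 snoRNA genes outside host introns, 5 had an optimal summit. The gene snoRNA:185 on 2R, of unnamed class and outside any gene, had a peak of rank 1129 with its summit 184 bp upstream of its own start, and its ranks in replicates 1, 2 and 3 were 696, 1299 and 2060. The summit nearest to a snoRNA start among the optimal ones belonged to Psi18S-176 (box H/ACA, 2R), 1 bp upstream of the start, at rank 1951; its replicate ranks were 5742, 6656 and 805, so it was among the 3545 strongest only in replicate 3. The nearest TSS of another gene lay 512 bp from that summit. Psi28S-2622 (box H/ACA, 3L), whose sequence is given above, had its summit 9 bp downstream of its start at rank 2886, with replicate ranks of 13763, 2978 and 4094. The nearest TSS of another gene, a small noncoding RNA gene, lay 176 bp from that summit.

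Or-ACA6 (box H/ACA, 2R) lies in a gene on the other strand, and its peak ranked 2538, 2574 and 2245 in the 3 replicates, with the summit 427 bp upstream of its start and 3386 bp from the nearest TSS. CG43051-a overlaps an exon of CG43051, and its summit lay 3 bp from the CG43051 TSS, with ranks of 4783, 1874 and 3317. Of the 26 genes that are not intronic, 2 had an optimal summit within 100 bp of their start, against 1 of 243 intronic genes and 3.33% of all annotated genes. The corresponding pooled counts were 7 of 26 and 11 of 243, against 17.1% of all annotated genes.

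Of the other 21 genes outside host introns, 10 had a pooled summit and 11 had none. Psi18S-301 (3R) had a pooled peak of rank 5720, 49 bp upstream of its start, with replicate ranks of 11893, 2794 and 7696. Psi28S-3342 (X) had one of rank 6924, 26 bp downstream. On 2R the box H/ACA gene Psi28S-1153 and its 2 neighbours named for their position shared a peak of rank 8042. U3 is a box C/D RNA needed for cleavage of the ribosomal RNA precursor and not for methylation. Its 3 genes had no optimal summit: U3:54Ab had a pooled rank of 16520, U3:9B one of 13305, and U3:54Aa had no summit in any list. The U14 genes, box C/D genes in Uhg2, had a pooled rank of 15494 at U14:30Eb and no pooled summit at U14:30Ea.

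Of the intronic genes without an optimal summit, the highest pooled rank belonged to gcl-a, in an intron of gcl. Its pooled peak ranked 3871, and the summit lay 108 bp upstream of gcl-a and 539 bp from the gcl TSS. The strongest peaks in the window ranked 3364, 2953 and 3892 in replicates 1, 2 and 3. Their summits lay 104 bp downstream, 103 bp upstream and 40 bp upstream of the gcl-a start. Me18S-G1358c in RpL15 (4016), Psi18S-1086 in Sf3b3 (4081), Psi18S-920 in RpL10Ab (4565) and Me28S-G3081a in Uhg1 (4640) had pooled peaks at the host TSS at the ranks given, as had Me28S-G2173 in RpS16 (4056) and the Uhg2 genes Me18S-A1576 and Me18S-G1620 (6212). Psi28S-2566 in CG3902 differed: its pooled summit lay 1 bp upstream of the snoRNA start and 1836 bp from the host TSS, at rank 5453. The strongest replicate peaks in the window ranked 6881, 8510 and 3107, and that of replicate 2 had its summit 243 bp downstream of the start.

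The genes for the proteins that assemble on snoRNAs were read at their TSSs. Of 15 genes for core snoRNP proteins and their assembly factors, all 15 had a pooled summit and 3 an optimal one, against 51.3% and 14.1% of protein-coding genes. The optimal ones were pont, an AAA+ ATPase of snoRNP assembly (rank 709), NHP2, a core H/ACA protein (rank 1040), and nop5, a core C/D protein (rank 1041). Their replicate ranks were 876, 507 and 1406 for pont, 1243, 1693 and 657 for NHP2, and 1585, 955 and 1178 for nop5. The methyltransferase gene Fib had a pooled rank of 22164 and the pseudouridine synthase gene Nop60B one of 10402. These genes and nop5 are also snoRNA hosts. The other pooled ranks were 4477 for Nopp140, 5143 for rept, 5811 for hoip and 5862 for Nop10, with Nop56, Gar1, spag, Nufip, CG10341 and CG10055 between 11650 and 18498. A pooled summit did not mean one in every replicate list. At their TSSs, spag and CG10341 had no summit in replicate 1, Gar1 and Nufip none in replicate 2, and hoip and Nop60B none in replicate 3.

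The promoters of the hosts at which the optimal summits near intronic snoRNA genes stood are shown for 9 of the 11, those on 2L, 3L, 3R and X, from 100 bp upstream of the TSS nearest the summit through its first 20 bp, 5′ to 3′ on the host's strand. Capitals mark TATCGATA, the core of the DNA replication-related element (DRE), a motif of many Drosophila housekeeping promoters. It was searched on both strands, and it reads the same on both.
RpL14, chr3L:8600906-8601025, plus strand: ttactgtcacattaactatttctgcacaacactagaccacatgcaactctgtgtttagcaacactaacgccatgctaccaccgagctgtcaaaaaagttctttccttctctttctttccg
RpL3, chr3R:11221794-11221913, plus strand: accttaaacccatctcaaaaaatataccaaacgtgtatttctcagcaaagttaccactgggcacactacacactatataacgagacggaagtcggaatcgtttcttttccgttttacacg
RpL17, chrX:6744152-6744271, minus strand: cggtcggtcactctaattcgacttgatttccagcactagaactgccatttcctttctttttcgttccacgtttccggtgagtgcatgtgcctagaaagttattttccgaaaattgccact
RpL28, chr3L:3222941-3223060, minus strand: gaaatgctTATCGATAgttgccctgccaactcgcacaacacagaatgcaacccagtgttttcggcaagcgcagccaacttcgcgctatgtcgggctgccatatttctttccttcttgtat
RpL36A, chr2L:8042840-8042959, minus strand: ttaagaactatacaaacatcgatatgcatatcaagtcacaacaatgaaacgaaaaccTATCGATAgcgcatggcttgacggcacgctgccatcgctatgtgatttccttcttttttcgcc
RpS12, chr3L:13023252-13023371, plus strand: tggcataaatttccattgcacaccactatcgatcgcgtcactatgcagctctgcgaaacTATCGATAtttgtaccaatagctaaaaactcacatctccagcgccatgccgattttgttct
RpS29, chr3R:9777997-9778116, plus strand: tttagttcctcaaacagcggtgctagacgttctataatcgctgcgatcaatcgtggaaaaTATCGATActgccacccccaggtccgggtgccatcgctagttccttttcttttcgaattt
RpS6, chrX:7901312-7901431, minus strand: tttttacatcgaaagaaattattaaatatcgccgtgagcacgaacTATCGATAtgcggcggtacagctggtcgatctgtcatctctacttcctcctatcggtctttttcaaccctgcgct
RpS20, chr3R:20822081-20822200, plus strand: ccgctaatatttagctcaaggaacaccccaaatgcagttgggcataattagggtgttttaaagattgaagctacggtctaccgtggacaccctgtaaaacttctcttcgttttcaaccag

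The DRE core stood in 5 of these 9 windows, at −92 in RpL28, −43 in RpL36A, −41 in RpS12, −40 in RpS29 and −55 in RpS6, counted from the TSS to the first base of the match. With Uhg4 and Uhg5 included the count was 5 of 11. In the same window around any annotated TSS the core was found in 19 of 89 hosts (21.3%), against 7.91% of protein-coding genes. Among ribosomal protein hosts it was found in 28.6%, against 28.3% of ribosomal protein genes that host no snoRNA, and in none of the 7 Uhg genes. It was found in 20.9% of the hosts with an optimal summit at a TSS and in 21.7% of those without, and among hosts with 1 annotated TSS in 2 of 18 with an optimal summit and in 7 of 26 without. Measured around the summits, the core lay within 100 bp of 2 of the 17 optimal summits at snoRNA genes, against 1.92% of all optimal and 1.21% of all pooled summits.

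Other motifs were counted in the same way. Within 100 bp of the 17 summits, GAGAG was found at 3 (17.6%), against 28.3% of all optimal summits, and TATAAA at 5 (29.4%), against 34.9%. CAGCTG was found at 2 (11.8%), against 9.51%. The E-box CACGTG was found at 1 (5.88%), against 2.71%, and the M1BP motif GGTCACAC at 1 (5.88%), against 1.64%. The Zelda motif CAGGTAG was found at none, against 0.931%. With 17 summits, a single one is 5.88%, so these counts are too few to set the shares apart. A pyrimidine-rich start of the form CTTTNTT, beginning within 5 bp of a TSS, was found in 12 of 89 hosts (13.5%), against 0.839% of protein-coding genes. It was found in 25% of ribosomal protein hosts, against 23.3% of ribosomal protein genes that host no snoRNA, and in 2 of 7 Uhg genes. A match is a description of the letters and not of binding.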

How the data were processed

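GFP ChIP-seq of whole embryos was analysed from the deposited peak lists on dm6, 1 per replicate, 1 pooled and 1 optimal. Per the submitters' file list, each replicate list was made from that replicate's alignments and a control, the pooled list from the 3 alignments, and the optimal list by IDR. Sources used here do not name the caller. Each peak's signal in these deposited lists was set by the authors' caller and served only to rank peaks within a list. The dm3 lists were not used. Coordinates count from 1.

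Genes came from Ensembl release 115, without transposable elements, and sequence from the RefSeq copy of the same assembly, Release 6. All peaks ended within the chromosome lengths of that sequence. A host was the gene with the shortest intron on the same strand that held the whole snoRNA gene. miRNA genes were taken by name. Box class was read from the gene name, which also decided the ribosomal protein and Uhg groups. The summit of 1 optimal peak lay past the peak's end and was set to its last base. Scripts used Python 3.11.15 and numpy 2.4.6, and the counting was tested on simulated peaks. Shares carry Wilson 95% intervals. With 1 group of samples there was no comparison between conditions and no p-value.

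The genes named were every snoRNA gene with an optimal summit and its host, the 10 hosts with the most snoRNA genes, the 10 snoRNA genes with the strongest pooled but no optimal summit, the strongest 6 outside introns (ties kept), the U3, U8 and U14 genes (no gene was named U8), and the 15 snoRNP genes. Ribosomal protein hosts given as strongest or as lacking an optimal summit, and Stt3A, were named after their values were seen. Values of some single hosts are not reported here. The members and lists were chosen with earlier results of these data known, and the DRE promoter window and CTTTNTT were added after seeing the data. Alternatives were other windows, peak overlap, distance from the gene body and a stricter list. In place of leaving out each replicate, optimal peaks were filtered by the lists of the other replicates.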

Additional observations from a re-analysis of the deposited data

How the results depend on the processing

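The counts at snoRNA starts moved with the window and those at host TSSs did not. With a window of 250 bp, 9 snoRNA genes had an optimal summit, 37 a pooled summit and 16 a summit in all 3 replicate lists, and 5 intronic genes had their optimal summit at a host TSS. With 1000 bp these counts were 50, 145, 93 and 39. The hosts with an optimal summit at a TSS were 40 and 46 under these windows, against 43. With peak overlap, distance from the gene body or the stronger 50% of the optimal list, every count stayed within 1.5 times its value. The optimal list was not remade without a replicate. For each replicate in turn, only optimal peaks that overlapped the 3545 strongest peaks of both other replicates were kept. This left 16 to 17 genes with an optimal summit, 35 to 38 hosts and 13 intronic genes at a host TSS. A summit in both other replicate lists was found for 45 to 49 genes. The filter can only lower the counts of marked genes and hosts, and asking for fewer replicate lists can only raise the last count. Of the alternatives chosen after seeing the data, counting only hosts with 1 annotated TSS gave 18 marked hosts, since fewer hosts were counted, and counting only TSSs of transcripts with the snoRNA intron gave 42. The DRE was found within 50 bp of 1 of the 17 summits, against 2 within 100 bp. Intronic genes numbered 255 with introns of either strand and 198 with protein-coding hosts only. No paired analysis was possible because there is 1 group of samples.

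Depth and coverage were not analysed here, so a missing summit says only that no peak entered the list. The fixed length of 30000 peaks sets how weak the last peaks are, and counting intervals do not cover that choice. Several snoRNA genes share a host or a peak and are not independent of each other.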

Other observations

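The intronic snoRNA genes began a median of 1441 bp from the nearest host TSS, against 2864 bp for the intronic miRNA genes. The share that began within 500 bp of one ran the other way, at 33 of 243 snoRNA genes (13.6%), against 17 of 112 miRNA genes (15.2%). Neither difference was tested.

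By chromosome arm, 96 of the 269 snoRNA genes lay on 2R, 52 on 3L, 48 on 3R, 41 on 2L, 31 on X and 1 on 4. Of those on 2R, 16 lay in Uhg1, 15 in dom and 11 in Uhg5. The spread of all annotated genes over the arms was not set beside these counts. An optimal summit lay near 8 of the snoRNA genes on 2R, 4 on 3L, 3 on 3R, 2 on 2L, 2 on X and 0 on 4. The share on 2R was 8.33% (4.28 to 15.6%), against 7.06% of all snoRNA genes.

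The pyrimidine-rich start CTTTNTT was found in 18.6% of the hosts with an optimal summit at a TSS and in 8.7% of the hosts without. Among protein-coding hosts that encode no ribosomal protein, the counts were 2 of 19 with and 1 of 32 without.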
